A study of Homo sapiens with 9 samples.

Results

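A set of 99 array probes had lower signal in cells given an siRNA against PIK3R3, and in cells given a combination of siRNAs, than in every other transfection of the same experiment. The cells were of the KYSE30 line, which is established from a human squamous carcinoma of the esophagus. They were transfected with Lipofectamine, and RNA was taken on day 3 and hybridised as biotin-labelled cRNA to Illumina bead arrays. The 9 groups had 1 array each and were siPIK3R3, an siRNA combination, miR-32, miR-455, miR-181a, miR-181b, siPIK3R1, a miRNA combination and a negative control. All groups, the negative control included, were exposed to the transfection reagent. The labels do not state the siRNA sequences, the doses, the arm of each microRNA or what either combination contained.

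The members were chosen from 19006 probes detected at a detection p under 0.01 on at least 1 array, out of 47317 on the array. The authors' processed intensities, which are on a linear scale, were set to at least 16 and put on the log2 scale. A probe was kept where the higher of its values in siPIK3R3 and the siRNA combination lay at least 1.5-fold below the lowest of the other 7 arrays. That distance is called the margin below. The 99 members made up 0.521% of the detected probes. Since the same values chose them, their low signal in these 2 arrays is a description and carries no test. Because every group is a single array, no value has a replicate error or a p-value, and an effect of the agent cannot be told apart from one of the culture.

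PI3K is a lipid kinase that relays signals from growth factor receptors and integrins to AKT and other effectors. Its class IA form pairs a catalytic subunit with a regulatory subunit, which holds the catalytic partner in check and carries it to phosphorylated receptors. PIK3R1 encodes the regulatory subunit p85alpha and shorter forms of it, and PIK3R3 encodes p55gamma, a regulatory subunit with a shorter amino-terminal part. An siRNA is loaded into an Argonaute protein and directs the cleavage of mRNA that matches it, while a microRNA lowers many mRNAs through short matches, mostly to its seed. The deposited tables name probes by number only, and no line of the reference tables used here held a probe number. The members are therefore described as probes. Which of them report PIK3R3, which share a gene, and the markers of squamous epithelium were not analysed here.

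The probe that stood farthest apart, ILMN_1750800, was detected on all 9 arrays. Its processed intensity was 174 in siPIK3R3 and 182 in the siRNA combination. It was 1247 in siPIK3R1, 2276 in miR-181a, 1513 in miR-181b, 1495 in miR-32, 1464 in miR-455 and 1693 in the miRNA combination, against 2389 in the negative control. The 2 low arrays were nearly equal and the 7 others did not come near them, with a margin of 6.85-fold. Relative to the control the signal was 13.8-fold lower in siPIK3R3 and 13.1-fold lower in the siRNA combination. Among all 19006 detected probes, ILMN_1750800 had the lowest log2 difference between siPIK3R3 and the control on the floored values, at -3.78. The floor limits how far a dim probe can fall, so this rank does not mark the strongest fall on the array. ILMN_1767113, for example, was under the floor in siPIK3R3 and was held at -3.56. The siRNA combination held a lower value elsewhere, since its lowest difference over all detected probes was -4.19, against -3.71 for ILMN_1750800. The siPIK3R1 array was the lowest of the other 7, with a log2 difference of -0.94 from the control.

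The second probe by margin, ILMN_1767113, was detected on the 7 other arrays and on neither of the 2 low ones. Its processed intensity was 6.33 in siPIK3R3 and 30.7 in the siRNA combination. It was 187 in siPIK3R1, 125 in miR-181a, 95.8 in miR-181b, 164 in miR-32, 173 in miR-455 and 170 in the miRNA combination, against 189 in the negative control. Both low values lie at the level of undetected probes, so only bounds can be given. With each undetected value raised to the lowest signal among detected probes of its array, the probe was at least 4.58-fold lower in siPIK3R3 and at least 4.68-fold lower in the siRNA combination than in the control. The miR-181b array was the lowest of the other 7.

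The third probe by margin was detected on all 9 arrays, with a margin of 2.83-fold. Its processed intensity was 112 in siPIK3R3 and 123 in the siRNA combination. On the other arrays it was 414 in siPIK3R1, 647 in miR-181a, 347 in miR-181b, 529 in miR-32, 477 in miR-455 and 447 in the miRNA combination, against 444 in the negative control. The signal was 3.96-fold lower in siPIK3R3 and 3.62-fold lower in the siRNA combination than in the control, while siPIK3R1 and the miRNA combination differed from it by -0.10 and 0.01 on the log2 scale. The fourth probe by margin was also detected throughout, with 382 in siPIK3R3 and 308 in the siRNA combination. It had 1142 in siPIK3R1, 1391 in miR-181a, 929 in miR-181b, 1380 in miR-32, 1101 in miR-455 and 887 in the miRNA combination, against 893 in the negative control. Here the control stood at the low end of the 7, and the folds relative to it, 2.34 in siPIK3R3 and 2.90 in the siRNA combination, were smaller than those relative to the median of the 7, 2.88 and 3.58.

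The fifth probe by margin showed the opposite arrangement among the 7. Its processed intensity was 59.5 in siPIK3R3 and 71.0 in the siRNA combination, 348 in siPIK3R1, 168 in miR-181a, 289 in miR-181b, 167 in miR-32, 160 in miR-455 and 239 in the miRNA combination, against 293 in the negative control. The miR-32, miR-455 and miR-181a arrays were thus closest to the low pair. The sixth probe was dim, at 14.1 in siPIK3R3 and 16.8 in the siRNA combination, where it was not detected, and at 37.4 to 59.8 on the other 7 arrays. Its bound was at least 1.17-fold lower in siPIK3R3 and at least 1.19-fold lower in the siRNA combination than in the control, so a margin of 2.23-fold on the floored values rests on signal near background.

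Of the remaining 5 members with a margin of at least 2-fold, 4 were detected on all 9 arrays. The seventh probe had 1069 in siPIK3R3 and 1098 in the siRNA combination, against 2645 in the negative control and 2371 to 3647 over the other 7 arrays. The eleventh was alike, with 1211 in siPIK3R3 and 1073 in the siRNA combination, against 2710 in the negative control and 2482 to 3429 over the 7. The eighth had 240 in siPIK3R3 and 179 in the siRNA combination, against 504 in the negative control, which was the lowest of the 7, and 993 in miR-181a, the highest. The tenth varied most among these: it had 120 in siPIK3R3 and 96.9 in the siRNA combination, 249 in the miRNA combination and 375 to 607 in the 5 other transfections, against 686 in the negative control. It was thus also low in the miRNA combination, by -1.46 on the log2 scale relative to the control, though above the low pair. The ninth was dim, at 9.70 in siPIK3R3 and 14.3 in the siRNA combination, not detected in either or in miR-181b, against 77.4 in the negative control. Its bounds were at least 1.87-fold lower in siPIK3R3 and at least 1.91-fold lower in the siRNA combination.

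The other 88 members had margins between 1.5 and 2-fold, and the median margin of all 99 was 1.66-fold. The 3 members nearest the threshold had margins of 1.5004, 1.5048 and 1.5072-fold. The last of these read 89.4 in siPIK3R3 and 131 in the siRNA combination, against 347 in the negative control and 198 in the miRNA combination, the lowest of the 7. The 3 probes just outside had margins of 1.4961, 1.4951 and 1.4940-fold. One of them read 247 in siPIK3R3 and 245 in the siRNA combination, against 420 in the negative control and 370 in the miRNA combination. The limit thus divides probes of nearly equal margin. In all, 1357 detected probes had both arrays below the other 7 by any margin.

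Across the 99 members the signal was a median of 2.27-fold lower in siPIK3R3 than in the control, with a range of 1.505 to 13.8-fold. In the siRNA combination it was a median of 2.35-fold lower, with a range of 1.515 to 13.1-fold. These folds are on the floored values and take in members that were not detected. All 99 were at least 1.5-fold lower than the control in both, as the rule requires, where 15.4% of all detected probes were lower in siPIK3R3 and 26% in the siRNA combination. Over all detected probes, 12.5% were at least 1.5-fold higher than the control in siPIK3R3 and 19.7% in the siRNA combination. These 2 comparisons share the control array. Relative to the median over the 7 remaining arrays, members were a median of 2.34-fold lower in siPIK3R3 and 2.25-fold lower in the siRNA combination on the floored values. On that scale 80 members were at least 2-fold lower and 5 at least 4-fold lower in siPIK3R3. With undetected values raised to their bound these counts were 51 and 4. In the siRNA combination 76 members were at least 2-fold lower and 4 at least 4-fold lower, and 47 and 3 at the bound. The rule already sets each member at least 1.5-fold below the lowest of the 7 on the floored values. These counts thus only describe the members chosen, and the same counts over all detected probes are not given here. Taken alone, siPIK3R3 lay at least 1.5-fold below the other 7 arrays at 505 probes and the siRNA combination at 589. The 99 members are 19.6% of the first list and 16.8% of the second.

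The siRNA combination and siPIK3R3 read closely alike at most members. The median log2 difference of the siRNA combination minus siPIK3R3 was 0.00, with the siRNA combination higher at 49 members, lower at 40 and equal at the floor at 10. It was at least 1.5-fold higher at 7 members, where 20.2% of all detected probes were, and at least 1.5-fold lower at 6, where 23.4% were. The rule favours probes low on both arrays, so this closeness is in part built in. At the 42 members detected on neither array, the comparison is also one of readings near background. Among members detected on both arrays, the largest gap upward was 0.85 on the log2 scale, at a probe with 179 in the siRNA combination and 99.6 in siPIK3R3, against 406 in the negative control. The largest gap downward was -0.78, at a probe with 85.6 in the siRNA combination and 147 in siPIK3R3, against 359 in the negative control. In both cases the higher of the 2 arrays lay below all 7 others, whose lowest values were 290 and 225.

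Detection sets a limit on how far the fall of many members can be measured. Of the 99, 54 were detected on both low arrays, 42 on neither and 3 on only 1 of them. Over all detected probes, 70.2% were detected on both, 15.98% on neither and 13.8% on only 1. On the other 7 arrays between 83 (miR-181b, 83.8%) and 93 (miR-32, 93.9%) members were detected, and 89 (89.9%) in the negative control. Over all detected probes the shares were 75.3% in miR-181b, 83.0% in miR-32 and 79.4% in the negative control. There were 19 members detected on all of the 7 and on neither of the 2, out of 37 such probes on the whole array. The rule asks for signal on the 7 above that on the 2, so these detection counts are in part built in. Among members detected both in the array and in the control, the median fold was 2.21 lower in siPIK3R3 (55 probes, 1.52 to 13.8-fold) and 2.27 lower in the siRNA combination (56 probes, 1.55 to 13.1-fold). With undetected values at their bound, 75 of 99 members remained at least 1.5-fold below the control in siPIK3R3 and 75 in the siRNA combination. The margin of the rule was kept by 62.

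By brightness in the control, 22 members were under 50, 56 lay between 50 and 500 and 21 were at 500 or more. Those under 50 made up 22.2% of members, against 28.1% of all detected probes. Those at 500 or more made up 21.2%, against 26.1%. Brightness depends on the probe as well as on its transcript, so these classes serve only to separate dim from bright measurements. None of the 22 dim members was detected in siPIK3R3 or in the siRNA combination. All 21 bright members were detected on all 9 arrays, and their median fold relative to the control was 2.14 lower in siPIK3R3 and 2.30 lower in the siRNA combination. The middle class had medians of 2.53 and 2.50, with 34 of its 56 members detected in siPIK3R3 and 35 in the siRNA combination.

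The 2 low arrays differed from each other in brightness. The mean raw signal was 392 in siPIK3R3 and 223 in the siRNA combination, against 343 to 468 on the single-agent arrays outside the pair, 270 in the miRNA combination and 406 in the negative control. The part of this difference in the result was not tested. Background correction and quantile normalization (neqc), which start from the same raw signal that the processed values were made from, also placed both arrays below the other 7 at all 99 members, but the margin then reached 1.5-fold at 37.

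A choice of probes that leaves out the siRNA combination gave a reading in which no array served for both steps. At 939 detected probes, siPIK3R3 was at least 1.5-fold below the lowest of miR-32, miR-455, miR-181a and the negative control, and these hold all 99 members. At these probes the siRNA combination minus the miRNA combination had a median log2 difference of -0.58, against -0.08 over all detected probes. It was at least 1.5-fold lower at 463 of them (49.3%), against 13.9% of all detected probes. It was at least 1.5-fold higher at 22 (2.34%), against 9.57%. The 99 members are among the 463, since the rule requires this of each of them. The likeness of the siRNA combination to siPIK3R3 was known from earlier results of these data, so this is no independent evidence of it.

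The siPIK3R1 array did not share the low signal of the members, which the rule requires. The rule bounds its signal from below, which limits the count of lower members. Beyond that bound, its difference from the control was not fixed. Its median log2 difference from the control over the 99 members was 0.00, with 11 members at least 1.5-fold lower, where 15.3% of all detected probes were, and 9 at least 1.5-fold higher, where 19.3% were. At the 55 members detected on both siRNA arrays, siPIK3R1 read 1.61 to 7.18-fold higher than siPIK3R3, with a median of 2.18-fold, where the rule itself fixes at least 1.5-fold. The same rule applied to siPIK3R1 with the siRNA combination gave 25 probes, and applied to both combinations it gave 334. The rule lets no member belong to either set. In the upward direction, 206 probes were at least 1.5-fold above the other 7 arrays in both siPIK3R3 and the siRNA combination.

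The miRNA combination, the other mixture in the experiment, stayed near the control at most members. Its median log2 difference was -0.05, with 9 members at least 1.5-fold lower (20.3% of all detected probes) and 8 higher (20.5%). The medians of the 6 transfections outside the pair lay between -0.11 and 0.07. In miR-32 11 members were lower (8.32% of all detected probes) and 7 higher (6.9%), and in miR-455 8 were lower (7.05%) and 4 higher (8.51%). In miR-181a 8 members were lower (8.73%) and 14 higher (9.02%), and in miR-181b 14 were lower (13%) and 8 higher (15.8%). Of these 4 microRNAs, the members' share stood farthest above its background for higher probes in miR-181a (14.1% against 9.02%). The rule bounds these 6 transfections from below at the members, which limits the counts of lower members, and not over all detected probes. It also favours probes that are steady on the 7 arrays. The highest of the 7 exceeded the lowest by a median of 1.73-fold at the members and 1.98-fold over all detected probes.

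The steadiest member among the 7 read 185 in siPIK3R3 and 208 in the siRNA combination, against 364 in the negative control and 325 to 367 over the 7, a span of 1.13-fold. The least steady read 82.1 in siPIK3R3 and 63.3 in the siRNA combination, against 228 in the negative control, and spanned 3.27-fold over the 7, with 134 in miR-181b and 439 in siPIK3R1. At this probe the 2 single siRNAs lay on opposite sides of the control. At the 76 members detected on all of the 7 arrays, miR-181a was the highest of the 7 at 32 (42.1%), where it was at 19.3% of the 12529 probes so detected. The siPIK3R1 array was the highest at 18.4% of these members, against 17.4% of such probes, and the negative control at 18.4%, against 11.5%. The miR-181b array was the lowest at 20 (26.3%), against 10.5%, and siPIK3R1 was the lowest at 15 (19.7%), against 22.7%. The negative control was the lowest at 13 (17.1%), against 13.9%, and miR-455 at 9 (11.8%), against 6.14%. The miRNA combination was the lowest at 9 (11.8%), against 23.8%, miR-181a at 6 (7.89%), against 14.6%, and miR-32 at 4 (5.26%), against 8.40%. The rule bounds the 7 arrays from below at the members and not at such probes at large, and its part in these shares was not tested.

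The 21 bright members were set apart after their values were seen, and are given beside the 4966 detected probes of that brightness. In miR-181a 17 of 21 were above the control, where 50.3% of the bright probes were, with a median log2 difference of 0.46. Of these, 8 were at least 1.5-fold higher, against 2.36% of the bright probes. In miR-32 16 of 21 were above (48.9% of the bright probes; median 0.27) and 5 were at least 1.5-fold higher (1.07%). In miR-455 16 were above (50.8%; median 0.18) and 1 was at least 1.5-fold higher (1.11%). The members thus stood above the control more often than the bright probes at large on these 3 arrays. The rule bounds these arrays from below at the members and not at the bright probes at large. Its part in this was not tested. In miR-181b 6 of 21 were above (45.7%; median -0.07) and 1 was at least 1.5-fold higher (6.14%). In siPIK3R1 8 were above (41.3%; median -0.11) and 1 was at least 1.5-fold higher (11.7%). In the miRNA combination 10 were above (46.7%; median -0.01) and 1 was at least 1.5-fold higher (12.4%). These 6 contrasts share the control array, so a low control at a probe moves them together. The direction in miR-32, miR-455 and miR-181a was the same with median scaling, where 15, 13 and 16 of 21 were above the control.

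The miR-181a and miR-181b arrays differed at the members although their microRNAs belong to one family. The mature 5p sequences are shown to give the seed (bases 2 to 8, in capitals) that both share. They are from RefSeq (GRCh38.p14). For miR-181a the copy at chr1:198859108-198859130 (minus strand, MIR181A1) is identical to that of MIR181A2, and for miR-181b the copy at chr1:198858925-198858947 (minus strand, MIR181B1) to that of MIR181B2. The labels do not say which arm was transfected.
hsa-miR-181a-5p: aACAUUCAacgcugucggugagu
hsa-miR-181b-5p: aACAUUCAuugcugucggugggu
The signal was higher in miR-181a than in miR-181b at 64 members and lower at 35, with a median log2 difference of 0.17, against 0.00 over all detected probes. It was at least 1.5-fold higher in miR-181a at 23 members (23.2%), where 15% of all detected probes were, and at least 1.5-fold lower at 9 (9.09%), where 18.2% were. The seventh probe by margin, for example, read 3647 in miR-181a and 2397 in miR-181b, and the eighth 993 in miR-181a and 504 in miR-181b. The mean raw signal was 418 on the miR-181a array and 361 on the miR-181b array, and its part in the difference was not tested. On both arrays these probes stayed above the 1069 and 240 read in siPIK3R3.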

How the data were processed

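RNA of 9 transfected KYSE30 cultures was measured on 1 Illumina array each, and arrays were grouped by their titles. Per the file headers, the raw table the authors deposited holds a signal intensity on a linear scale and a detection p-value for each of 47317 probes. The authors also deposited processed intensity values. Within each array these are a linear function of the raw signal: a constant was taken off and the rest multiplied, so that all arrays have one mean. No source used here gives the method. Array number limits the precision.

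Processed values under 16 were set to 16 and put on the log2 scale. The members and lists were chosen with earlier results of these data known. Naming by gene symbol was planned but needs a probe annotation, so the 2 probes of the largest margin are named and others are given by rank; the 15 gene lists, 4 marker lists, promoter motifs and other probes of the same gene were not analysed. No test across probes was made. The rule was tested on simulated data. Alternatives were floors of 1 and 50, neqc (limma 3.58.1, R 4.3.3, offset 16), quantile normalization, median scaling, other detection limits and other folds. Undetected values at their bound, the median of the other 7 arrays as reference and the choice below 4 arrays were added after seeing the data. Python 3.11.15, numpy 2.4.6 and pandas 2.3.3 were used.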

Additional observations from a re-analysis of the deposited data

How the results depend on the processing

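The count of 99 probes depended on the treatment of dim values, on the normalization and on the limits chosen. It was 58 with a floor of 50, 37 with neqc and 62 with undetected values raised to their bound, a setting added after seeing the data. Each of these sets lies within the 99. The count was 11 at 2-fold and 1357 with no margin. With siPIK3R1 or the miRNA combination in place of siPIK3R3 it was 25 or 334, and the choice in siPIK3R3 below 4 arrays, also added later, gave 939. A floor of 1 gave 139 probes, which hold all 99. Quantile normalization gave 74 probes and kept 68 of the 99, and median scaling gave 74 and kept 73. Of the 54 members detected on all 9 arrays, neqc kept 34 and median scaling 42, and neqc kept 17 of the 21 bright ones; the cause was not tested. In all, 35 members kept the margin in every one of the 6 sets of values, 9 of them among the 11 at 2-fold. The median log2 difference of the members from the control was -0.88 in siPIK3R3 and -0.83 in the siRNA combination with a floor of 50, -0.94 and -0.98 with neqc, and -0.97 and -0.96 at the bound. The floor of 50 and the bound raise dim values, which shrinks a fold by construction. The bound moved the median of all detected probes by 0.12 to 0.16 in siPIK3R3, siPIK3R1, miR-181b and the siRNA combination. The remaining 71 values for the count and the medians, with the 139 and both counts of 74 among them, stayed within 1.5 times or 0.1. No paired analysis was possible because there is 1 array per group. Alternatives that need gene names (gene lists, other probes of a gene, promoter motifs) were not run.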
